A study of Mus musculus with 18 samples.

Results

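The untreated parental 4T1 cultures were compared with the 4T1 line that carries an empty lentiviral vector (EV) on plastic. These are the control arms of a TGFb1 experiment and of a Wisp1 overexpression experiment, and both are controls on the same mouse mammary carcinoma line. The members were chosen by the labels: 3 untreated parental libraries and 3 EV libraries, or 6 of the 18 libraries of the series. Untreated parental cells were given fresh RPMI and lysed after 24 h. EV cells were 4T1 cells transduced with the empty vector, selected with puromycin as a stable line, and harvested from subconfluent cultures on tissue-culture plastic. All groups were grown in RPMI with fetal calf serum and antibiotics, and poly(A) RNA was sequenced from each culture with a stranded library kit. The other 4 groups, of 3 libraries each, were parental cells given 2 ng/mL recombinant human TGFb1 for 24 h, a puromycin-selected Wisp1 line on plastic, and the EV and Wisp1 lines on collagen type I. The cell line, the vector and selection, and the timing of the medium all differed between the 2 controls, and the titles of the libraries belong to 2 naming series. These differences cannot be told apart in what follows. Each stable line is a single line, and the labels do not say whether its replicates were grown apart, so p-values measure the spread between these samples, which may be technical.

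The 4T1 line was established from a spontaneous mammary tumour of a BALB/c mouse. It forms tumours in the mammary fat pad that spread to lung, liver and bone without help from an oncogene transgene, and it is widely used as a model of metastatic breast cancer. Its cells keep epithelial keratins and E-cadherin while also making vimentin, and they secrete granulocyte colony-stimulating factor, which expands neutrophils in tumour-bearing animals. An empty vector line is the usual control for a transduced gene because it shares the virus, the drug and the time in culture with the line that carries the insert.

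Gene counts ran from 74255016 to 83565725 in untreated parental libraries and from 41761010 to 77748072 in EV libraries. After thinning to 41761010 counts, 18038 to 18571 genes had a count in parental libraries and 16873 to 17306 in EV libraries. Reads overlapping several genes made up 1.02 to 1.07% of a parental library and 1.35 to 1.65% of an EV library. Both groups expressed epithelial genes, which does not by itself show carcinoma: all 12 epithelial markers examined, among them Krt8, Krt18, Epcam and Cdh1, were above 1 CPM (counts scaled to library size, here after TMM, the trimmed mean of M values) in all 6 libraries. Of 4 basal markers only Krt14 was, and Krt5 had no count.

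The most abundant transcripts of untreated parental cells encoded galectin, S100 and translation proteins. Per kb of coding sequence, Lgals1, which encodes galectin-1, ranked first at 9095 ± 733 CPM per kb in parental cells and 12596 ± 476 CPM per kb in EV cells (mean ± SD, n = 3 each). The calcium-binding protein genes S100a6 and S100a4 reached 8336 ± 461 and 3580.1 ± 355 CPM per kb in parental cells. Among the 10 highest were also the elongation factor gene Eef1a1, the ribosomal protein genes Rpl41, Rplp1 and Rpsa, the translationally controlled tumour protein gene Tpt1 and the membrane protein gene Emp1. Eef1a1 stood at 8321 ± 202 CPM per kb in parental cells and 8489.9 ± 311 CPM per kb in EV cells, and it was not called different (log2 change −0.01, edgeR adjusted p = 0.86). Spp1, the gene of the secreted matrix protein osteopontin, ranked eighth in parental cells at 3434 ± 1323 CPM per kb, against 273 ± 41.6 CPM per kb in EV cells. The lengths are of the longest coding sequence per symbol in an annotation of a later build, and reads in untranslated regions are included in the counts, so genes with long untranslated regions rank too high on this scale.

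A gene was called different at an edgeR quasi-likelihood adjusted p under 0.05. Of 14476 genes tested, 6276 were called (43.4%), 3452 of them higher (23.8%) and 2824 lower (19.5%) in untreated parental cells than in EV cells. Large differences were mostly in 1 direction: 1567 genes were at least 2-fold higher (10.8%) and 380 at least 2-fold lower (2.63%). The groups did not overlap for 8344 genes (57.6%), 6204 of them among the called. Genes named for the largest changes or the smallest adjusted p had to show no overlap, so their separation is no further support. The typical change depended on expression. Below 1 CPM the median log2 change was 0.56 over 2332 genes, from 5 to 50 CPM it was 0.051 over 5713 genes, and above 200 CPM it was −0.15 over 1007 genes. Below 1 CPM 25.4% of genes were called higher and 5.36% lower. A gene could pass the expression filter through 3 libraries of 1 group, and more genes had a count in parental libraries. The direction of such genes was fixed in advance. They enter the 2-fold counts too, and their number was not determined. The median over all genes was 0.050.

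**Figure D1:**
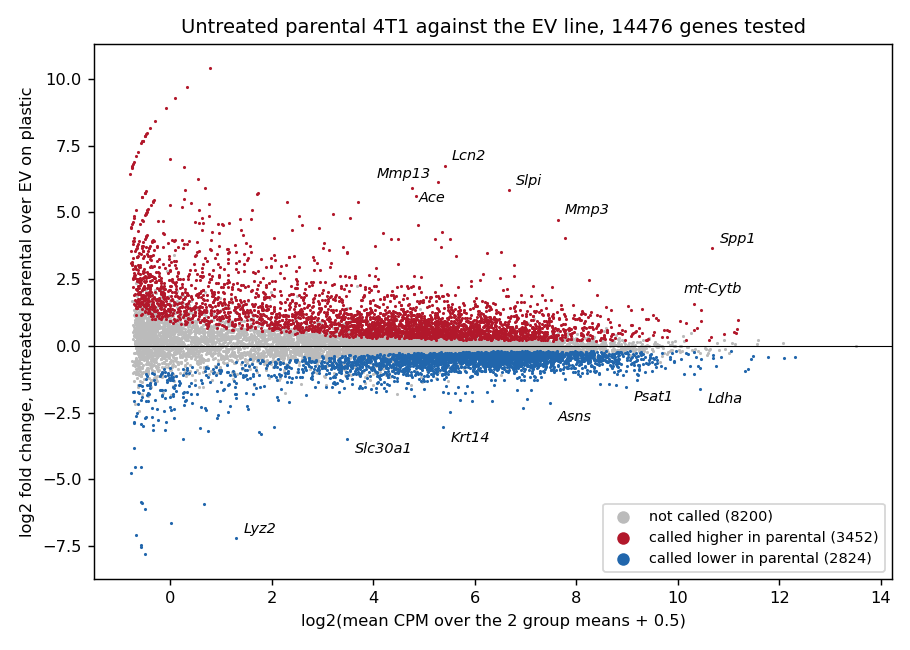
Each point is 1 of 14476 genes: the x axis gives log2 of the mean of both group means in CPM plus 0.5, and the y axis the edgeR log2 fold change of untreated parental over EV cells. Red marks 3452 genes called higher, blue 2824 called lower and grey the rest. Positive changes above 2.5 are common at the left, where expression is low, and few genes at the right move by more than 1. The arcs of points at the far left are genes with no count in all libraries of a group, whose fitted values depend on the prior count.

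The largest positive differences among genes with a mean of at least 5 CPM and no overlap began with Lcn2, Mmp13, Ace and Slpi. Lcn2, which encodes the iron-siderophore carrier lipocalin-2, had 42.9, 179 and 27.4 CPM in untreated parental cells, against 0.764, 1.18 and 0.306 CPM in EV cells (log2 change 6.74 ± 0.92 SE, edgeR adjusted p = 0.0018). The groups were far apart although parental replicate 2 was well above the other parental libraries. Slpi, the gene of the secretory leukocyte protease inhibitor, had 217, 263 and 119 CPM in untreated parental cells, against 3.66, 4.44 and 2.35 CPM in EV cells (log2 change 5.84 ± 0.38 SE, edgeR adjusted p = 0.00032). Ace, which encodes angiotensin-converting enzyme, had 61.3, 65.1 and 30.5 CPM in untreated parental cells, against 1.099, 0.907 and 0.613 CPM in EV cells (log2 change 5.92 ± 0.38 SE, edgeR adjusted p = 0.00032). The lowest parental library was above the highest EV library by more than an order of magnitude for each of these genes. Mgp, whose product inhibits calcification, averaged 55.3 ± 31.2 CPM in parental cells and 1.13 ± 0.344 CPM in EV cells (log2 change 5.61). The remaining genes of the 10 largest positive changes were the kinase gene Sgk2 (5.39), the Schlafen family gene Slfn2 (4.94), the deiodinase gene Dio2 (4.805), the adducin gene Add2 (4.54) and the collagenase and stromelysin genes described next. Among the genes with the smallest adjusted p that were higher in parental cells were also the Eph receptor gene Ephb6 (log2 change 3.08, edgeR adjusted p = 0.00022) and Ckb, the brain-type creatine kinase gene (log2 change 2.95, edgeR adjusted p = 0.00022).

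Proteases and their inhibitors were called higher more often than all genes were. Of 31 list members tested, 14 were called higher and 6 lower (45.2% and 19.4%, against 23.8% and 19.5% of all genes). Their median log2 change was 0.40. Mmp13, the gene of collagenase-3, had 58.5, 145 and 21.2 CPM in untreated parental cells, against 1.08, 1.196 and 0.900 CPM in EV cells (log2 change 6.15 ± 0.75 SE, edgeR adjusted p = 0.0013). Mmp3, the gene of stromelysin-1, which cleaves many matrix proteins and activates other pro-enzymes, had 426, 554 and 163 CPM in untreated parental cells, against 16.8, 15.6 and 11.1 CPM in EV cells (log2 change 4.73 ± 0.46 SE, edgeR adjusted p = 0.00069). The rule that named both genes requires groups that do not overlap. Parental replicate 3 was the lowest of the 3 parental libraries for each. The plasminogen activators moved the same way: Plau, which encodes urokinase, had a log2 change of 2.48 (edgeR adjusted p = 0.00069) and Plat, the tissue-type activator gene, 2.903 (edgeR adjusted p = 0.0032). Plau, Plat and Mmp10, another stromelysin gene (log2 change 4.52, edgeR adjusted p = 0.00089), were chosen after their values were seen. Some members went the other way. Adamts1, the gene of a secreted disintegrin and metalloproteinase with thrombospondin motifs, was lower, with 46.2, 57.7 and 52.3 CPM in untreated parental cells, against 184, 163 and 271 CPM in EV cells (log2 change −1.97 ± 0.20 SE, edgeR adjusted p = 0.00075), and so was the sheddase gene Adam8 (log2 change −1.04, edgeR adjusted p = 0.00089).

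The AP-1 motif TGANTCA, bound by Fos and Jun dimers and well known from collagenase and stromelysin genes, was searched on both strands in promoter windows from 250 bases before to 50 after the start of each gene (RefSeq, GRCm38.p6). It was present in 6 of the 22 protease list genes that have a window (27.3%), and in 8.97% of all 27025 genes with a window. The windows of Mmp13 and Mmp3 are shown because both genes are described above and each holds 1 match near its start site. It lies at −35 in Mmp13 (chr9:7272264-7272563, plus strand) and at −46 in Mmp3 (chr9:7445572-7445871, plus strand). Capitals mark the motif, and offsets are counted from the start site to the first base of the match. A match is a description of the letters and not a binding site.
Mmp13: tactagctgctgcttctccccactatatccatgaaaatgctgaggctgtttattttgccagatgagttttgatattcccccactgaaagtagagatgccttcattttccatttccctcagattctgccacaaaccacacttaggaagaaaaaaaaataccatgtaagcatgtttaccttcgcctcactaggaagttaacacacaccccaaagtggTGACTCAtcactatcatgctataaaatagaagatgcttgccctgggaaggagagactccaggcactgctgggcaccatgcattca
Mmp3: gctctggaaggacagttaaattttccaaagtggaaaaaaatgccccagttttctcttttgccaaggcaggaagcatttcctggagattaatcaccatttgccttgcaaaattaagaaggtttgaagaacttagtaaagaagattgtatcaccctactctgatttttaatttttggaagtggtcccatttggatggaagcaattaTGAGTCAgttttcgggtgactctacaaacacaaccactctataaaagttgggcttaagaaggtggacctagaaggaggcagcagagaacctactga

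Genes of the AP-1 and early growth response families, which growth factor signalling through MAP kinases induces within minutes, and the feedback inhibitors of that pathway were also higher as a group. Of 32 members tested, 16 were called higher and 5 lower (50% and 15.6%, against 23.8% and 19.5% of all genes). Their median log2 change was 0.44. Egr3 had 4.4001, 5.02 and 4.29 CPM in untreated parental cells, against 0.334, 0.276 and 0.440 CPM in EV cells (log2 change 3.73 ± 0.25 SE, edgeR adjusted p = 0.00032). Egr2 showed a like difference at 4.27 ± 1.47 CPM in parental cells and 0.455 ± 0.128 CPM in EV cells (log2 change 3.22, edgeR adjusted p = 0.00093). Egr1 and Fos, chosen after their values were seen, had log2 changes of 2.202 (edgeR adjusted p = 0.0021) and 1.96 (edgeR adjusted p = 0.0011). Dusp6, the phosphatase that inactivates ERK, had 255, 225 and 188 CPM in untreated parental cells, against 75.4, 77.4 and 72.9 CPM in EV cells (log2 change 1.58 ± 0.11 SE, edgeR adjusted p = 0.00035). None of these groups overlapped. Myc, a growth-promoting transcription factor gene on the same list, was lower, with 196, 163 and 151 CPM in untreated parental cells, against 292, 299 and 322 CPM in EV cells (log2 change −0.83 ± 0.10 SE, edgeR adjusted p = 0.0013), as was the stress-induced factor gene Atf3 (log2 change −0.77, edgeR adjusted p = 0.0077). The count of higher members fell to 10 without parental replicate 2, and to 10, 8 and 9 without EV replicates 1, 2 and 3.

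Interferon-stimulated genes were higher almost throughout. These genes are switched on by interferon-activated transcription factors and encode antiviral and antigen-processing proteins. Of 36 members tested, 33 were called higher in parental cells and 0 lower, against 23.8% and 19.5% of all genes, and the median log2 change was 1.26 against 0.050. Oasl2, an oligoadenylate synthetase-like gene, had 28.4, 30.6 and 24.9 CPM in untreated parental cells, against 6.83, 9.003 and 8.06 CPM in EV cells (log2 change 1.82 ± 0.14 SE, edgeR adjusted p = 0.00039). Ifit1, whose product binds foreign RNA ends, had 10.9, 7.698 and 6.85 CPM in untreated parental cells, against 1.48, 2.16 and 1.49 CPM in EV cells (log2 change 2.32 ± 0.25 SE, edgeR adjusted p = 0.00085). Igtp, an immunity-related GTPase gene, had 7.42, 6.89 and 6.67 CPM in untreated parental cells, against 2.22, 2.497 and 2.22 CPM in EV cells (log2 change 1.61 ± 0.15 SE, edgeR adjusted p = 0.00058). The groups did not overlap for these 3 genes, and replicates within each group stayed within a narrow range. Of the 3 members not called, Ifit2 and Ddx58, the sensor RIG-I, had log2 changes of −0.26 and 0.04 (edgeR adjusted p = 0.18 and 0.76). Over the alternative settings between 22 and 33 members were called higher, and without parental replicate 1 the number called lower was 1. Interferon-induced genes belong to families of close copies, and how reads with several alignments were counted is not given.

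The interferon-stimulated response element, searched on both strands of the same windows as GAAA, any 2 bases and a second GAAA, was found in 16 of 27 list genes with a window (59.3%) and in 3.99% of all genes. The windows of Ifit1 (chr19:34640639-34640938, plus strand) and Igtp (chr11:58199306-58199605, plus strand) are given as those of the named members that hold it. Ifit1 has 2 matches that do not overlap, at −104 and −85, both on the opposite strand, and Igtp has 1 at −34; capitals mark them.
Ifit1: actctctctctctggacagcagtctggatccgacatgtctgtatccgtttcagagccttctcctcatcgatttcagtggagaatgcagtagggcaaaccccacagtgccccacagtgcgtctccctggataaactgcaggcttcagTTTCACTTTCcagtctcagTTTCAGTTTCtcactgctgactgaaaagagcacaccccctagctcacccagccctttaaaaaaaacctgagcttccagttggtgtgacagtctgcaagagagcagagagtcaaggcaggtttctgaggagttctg
Igtp: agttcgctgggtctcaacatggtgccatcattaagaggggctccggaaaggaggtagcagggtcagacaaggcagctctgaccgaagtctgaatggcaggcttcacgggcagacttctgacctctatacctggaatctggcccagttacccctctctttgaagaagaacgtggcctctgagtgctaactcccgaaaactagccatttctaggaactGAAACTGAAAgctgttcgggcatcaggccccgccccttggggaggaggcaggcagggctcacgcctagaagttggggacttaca

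Antigen presentation genes, many of which interferons also induce, were higher to a smaller degree. Of 19 tested, 12 were called higher and 1 lower (63.2% and 5.26%, against 23.8% and 19.5% of all genes). Their median log2 change was 0.47. The non-classical class I gene H2-T23 had 47.1, 72.7 and 70.5 CPM in untreated parental cells, against 15.8, 19.9 and 17.2 CPM in EV cells (log2 change 1.86 ± 0.19 SE, edgeR adjusted p = 0.00072). Nlrc5, the transactivator of class I genes, had 37.6, 48.4 and 37.2 CPM in untreated parental cells, against 19.6, 18.2 and 19.97 CPM in EV cells (log2 change 1.11 ± 0.13 SE, edgeR adjusted p = 0.0011). The classical class I gene H2-K1 was 1.52-fold higher (log2 change 0.61, edgeR adjusted p = 0.0017). The class II gene H2-Ab1 was the member called lower, at 0.127 ± 0.0146 CPM in parental cells and 0.357 ± 0.0794 CPM in EV cells (log2 change −1.47, edgeR adjusted p = 0.012). Members called higher numbered 7, 6 and 6 without EV replicates 1, 2 and 3, and H2-Ab1 was not called by limma-voom, without EV replicate 1 or 2, or without parental replicate 2.

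Sterol and fatty acid synthesis genes, which SREBP transcription factors turn on when membrane cholesterol is low, were higher across nearly the whole pathway. Of 32 tested, 29 were called higher and 1 lower (90.6% and 3.1%, against 23.8% and 19.5% of all genes). Their median log2 change was 1.02, and 26 to 32 were called higher under the alternatives. Pmvk, the phosphomevalonate kinase gene, had 87.3, 112 and 79.9 CPM in untreated parental cells, against 32.3, 36.7 and 31.05 CPM in EV cells (log2 change 1.49 ± 0.14 SE, edgeR adjusted p = 0.00062). Sqle, which encodes squalene epoxidase, had 405, 406 and 283 CPM in untreated parental cells, against 200.03, 214 and 191 CPM in EV cells (log2 change 0.87 ± 0.14 SE, edgeR adjusted p = 0.0030). The groups did not overlap for either gene. Of the late steps, the sterol reductase gene Tm7sf2 had 23.7, 32.4 and 23.2 CPM in untreated parental cells, against 5.61, 6.39 and 5.02 CPM in EV cells (log2 change 2.23 ± 0.17 SE, edgeR adjusted p = 0.00041) and Dhcr7, which makes cholesterol from its last precursor, had 103, 89.99 and 90.5 CPM in untreated parental cells, against 46.9, 51.05 and 50.3 CPM in EV cells (log2 change 0.95 ± 0.08 SE, edgeR adjusted p = 0.00052). Insig1, a feedback regulator that is itself an SREBP target, had a log2 change of 1.92 (edgeR adjusted p = 0.0025). Parental replicate 3 was the lowest of the parental libraries for Pmvk and Sqle. The mevalonate kinase gene Mvk was among the members not called (log2 change 0.31, edgeR adjusted p = 0.21). Sqle, Insig1 and Mvk were chosen after their values were seen. Acaca, the gene of acetyl-CoA carboxylase and the first committed step of fatty acid synthesis, was the member called lower (log2 change −0.24, edgeR adjusted p = 0.019). It was not called without parental replicate 2, with any of the EV replicates left out, or with the replicate number as a block (edgeR adjusted p = 0.050). The sterol element searched as TCACNCCAC on both strands was in the window of 1 of 22 list genes (4.55%) and of 1.44% of all genes.

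**Figure D2:**
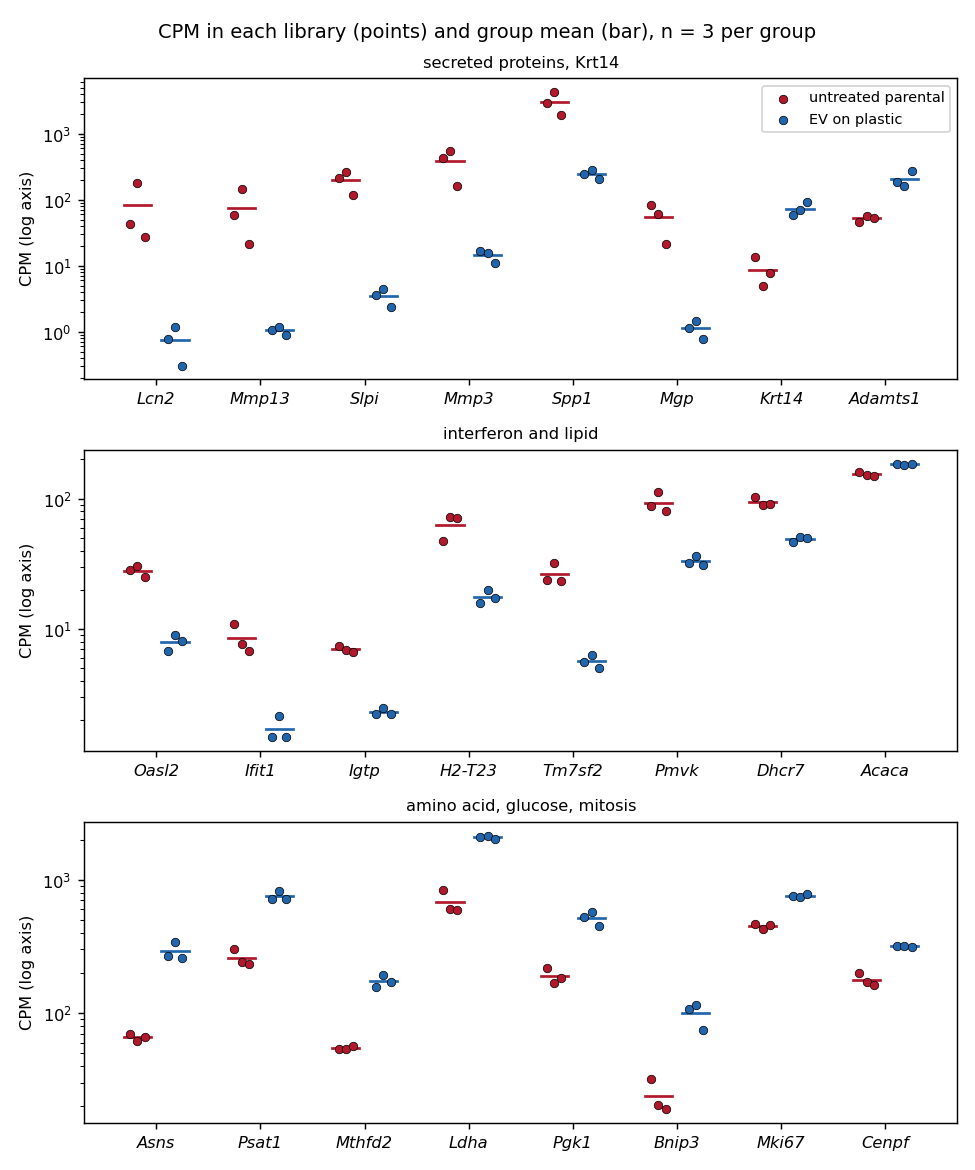
CPM on a log axis for 24 genes in each untreated parental library (red, left) and each EV library (blue, right), with a bar at the mean of 3. In the upper panel Lcn2, Mmp13, Slpi, Mmp3, Spp1 and Mgp are higher and Krt14 and Adamts1 lower in parental cells. In the middle panel all genes but Acaca are higher. In the lower panel all 8 genes are lower, and the parental points of Asns (69.8, 61.95 and 66.4 CPM) lie below every EV point (269, 343 and 260.2 CPM).

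Genes induced by Atf4, the transcription factor that amino acid shortage and other stresses raise through eIF2 phosphorylation, were lower. Of 32 tested, 2 were called higher and 23 lower (median log2 change −0.85, between 19 and 25 lower under the alternatives). These shares were 6.25% and 71.9%, against 23.8% and 19.5% of all genes. Asns, the asparagine synthetase gene, had 69.8, 61.95 and 66.4 CPM in untreated parental cells, against 269, 343 and 260.2 CPM in EV cells (log2 change −2.12 ± 0.12 SE, edgeR adjusted p = 0.00022). Psat1, a transaminase gene of serine synthesis, had 303, 241 and 235 CPM in untreated parental cells, against 724, 819.8 and 723 CPM in EV cells (log2 change −1.53 ± 0.11 SE, edgeR adjusted p = 0.00039). Mthfd2, which encodes a mitochondrial folate enzyme that uses serine carbon, had 53.7, 54.04 and 56.5 CPM in untreated parental cells, against 157, 193 and 170.4 CPM in EV cells (log2 change −1.65 ± 0.09 SE, edgeR adjusted p = 0.00022). The 3 parental libraries differed little among themselves for each of these genes. They were below every EV library, which the rule that named Asns and Mthfd2 requires of those 2 genes. Gpt2, the mitochondrial alanine transaminase gene, is not on the list and was among the 10 largest negative changes, with 13.99, 14.9 and 12.2 CPM in untreated parental cells, against 62.9, 102 and 63.96 CPM in EV cells (log2 change −2.46 ± 0.20 SE, edgeR adjusted p = 0.00047). The glutaminase gene Gls2 had a log2 change of −1.62 (edgeR adjusted p = 0.00032). The list members called higher were the transcription factor gene Cebpb (log2 change 1.2997, edgeR adjusted p = 0.0093) and the chromatin protein gene Nupr1, whose groups overlapped (log2 change 0.49, edgeR adjusted p = 0.040); Nupr1 was not called with limma-voom or without parental replicate 2 or 3 or EV replicate 1 or 3.

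The amino acid response element, a composite of C/EBP and ATF half-sites, was searched as TGATGNAA on both strands. It occurred in 10 of 26 list genes with a window (38.5%) and in 4.51% of all genes. The window of Asns (chr6:7693160-7693459, minus strand) is shown as that of a member described above with a match, which lies at −23.
Asns: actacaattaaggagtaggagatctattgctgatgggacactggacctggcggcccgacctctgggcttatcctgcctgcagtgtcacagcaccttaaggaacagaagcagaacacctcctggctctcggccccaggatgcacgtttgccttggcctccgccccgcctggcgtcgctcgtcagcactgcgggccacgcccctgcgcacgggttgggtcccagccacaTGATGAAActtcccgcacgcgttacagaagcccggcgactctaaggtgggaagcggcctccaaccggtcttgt

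Glycolysis genes, many of them targets of the hypoxia-inducible factor, were lower together. Of 31 members of the hypoxia and glycolysis list, 4 were called higher and 18 lower (median log2 change −0.58, between 16 and 19 lower under the alternatives). These shares were 12.9% and 58.1%, against 23.8% and 19.5% of all genes. Ldha, which encodes the lactate dehydrogenase subunit that favours lactate production, had 843, 605 and 595 CPM in untreated parental cells, against 2117, 2146 and 2032 CPM in EV cells (log2 change −1.61 ± 0.14 SE, edgeR adjusted p = 0.00052). Pgk1, the phosphoglycerate kinase gene, had 217, 169 and 183 CPM in untreated parental cells, against 526, 573 and 449 CPM in EV cells (log2 change −1.43 ± 0.12 SE, edgeR adjusted p = 0.00053). Aldoa, the aldolase A gene, was 617 ± 27.4 CPM in parental cells and 1097 ± 86.02 CPM in EV cells (log2 change −0.82, edgeR adjusted p = 0.00063). Bnip3, a mitophagy receptor gene and a hypoxia target, had 31.6, 20.5 and 18.9 CPM in untreated parental cells, against 108, 116 and 74.5 CPM in EV cells (log2 change −2.05 ± 0.24 SE, edgeR adjusted p = 0.0011). The groups did not overlap for any of these genes, which the rule that named Bnip3 requires of it. Of the 4 members called higher, Slc2a1 is a glucose transporter gene (log2 change 0.48, edgeR adjusted p = 0.0053). Another is Pfkfb4, which encodes an enzyme that makes the phosphofructokinase activator fructose-2,6-bisphosphate (log2 change 1.49, edgeR adjusted p = 0.0014).

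Transcripts of the mitochondrial genome and nuclear transcripts of the same respiratory complexes moved in opposite directions. Mitochondrial genes took 1.17 to 1.36% of gene counts in untreated parental libraries and 0.567 to 0.598% in EV libraries. Of 15 mitochondrially encoded genes tested, 12 were called higher and 1 lower (80% and 6.67%, against 23.8% and 19.5% of all genes). Their median log2 change was 0.99, and 12 were called higher under each of the 14 alternatives. mt-Cytb, the cytochrome b gene, had 2158, 1838 and 1765 CPM in untreated parental cells, against 657, 619 and 677 CPM in EV cells (log2 change 1.57 ± 0.09 SE, edgeR adjusted p = 0.00027). The complex I subunit genes mt-Nd4 and mt-Nd4l had log2 changes of 1.35 and 1.42 (edgeR adjusted p = 0.00032 and 0.00032). mt-Nd6 was the exception, with 20.5, 11.3 and 8.74 CPM in untreated parental cells, against 39.3, 32.6 and 35.9 CPM in EV cells (log2 change −1.397 ± 0.29 SE, edgeR adjusted p = 0.0087). It is the only messenger RNA gene on the opposite strand of the mitochondrial genome, and whether the counting used strand is not given. Of 33 nuclear respiratory chain genes, 2 were called higher and 16 lower (6.06% and 48.5%, against the same shares of all genes). Their median log2 change was −0.25. The complex III gene Cyc1 had 91.3, 76.7 and 62.5 CPM in untreated parental cells, against 129, 131 and 142 CPM in EV cells (log2 change −0.79 ± 0.13 SE, edgeR adjusted p = 0.0036). The complex I gene Ndufa9 and complex IV gene Cox5a had log2 changes of −0.48 and −0.51 (edgeR adjusted p = 0.0039 and 0.0052). The lower count was 9 without parental replicate 2.

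Cell division genes were lower by small but regular amounts. Of 28 mitosis genes, 0 were called higher and 19 lower (median log2 change −0.42). Mki67, which encodes the proliferation antigen Ki-67, had 465, 427 and 455 CPM in untreated parental cells, against 750.1, 739 and 776 CPM in EV cells (log2 change −0.74 ± 0.07 SE, edgeR adjusted p = 0.00056). Cenpf, a kinetochore protein gene, had 200.1, 170.5 and 161 CPM in untreated parental cells, against 318, 319 and 313 CPM in EV cells (log2 change −0.82 ± 0.09 SE, edgeR adjusted p = 0.00082). Cdc20, an activator of the anaphase-promoting complex, was 1.46-fold lower (log2 change −0.54, edgeR adjusted p = 0.0030). The lower count was 9 without parental replicate 2 and 9, 9 and 10 without EV replicates 1, 2 and 3, and as many as 27 under another alternative. Of 36 DNA replication genes, 9 were called higher and 6 lower, shares near those of all genes (25% and 16.7%, against 23.8% and 19.5%). The lower count was 17 without parental replicate 1 and 2 without EV replicate 1 or 2. Ccne1, the cyclin E1 gene (log2 change 0.95, edgeR adjusted p = 0.0018), and the transcription factor gene E2f1 (log2 change 0.68, edgeR adjusted p = 0.0032) were higher, and the polymerase gene Pola1 (log2 change −0.49, edgeR adjusted p = 0.0050) and the ribonucleotide reductase gene Rrm1 (log2 change −0.35, edgeR adjusted p = 0.0082) were lower. Ccnd2, the cyclin D2 gene, was among the smallest adjusted p in the lower direction, with 73.6, 62.3 and 61.8 CPM in untreated parental cells, against 204, 211 and 209 CPM in EV cells (log2 change −1.64 ± 0.08 SE, edgeR adjusted p = 0.00022). Cdkn1a, which encodes the cell cycle inhibitor p21, had 31.7, 65.2 and 32.9 CPM in untreated parental cells, against 10.2, 8.96 and 9.48 CPM in EV cells (log2 change 2.19 ± 0.29 SE, edgeR adjusted p = 0.0016). Its regulator gene Trp53 stood at 51.4 ± 3.72 CPM in parental cells and 51.6 ± 2.71 CPM in EV cells and was not called (log2 change 0.01, edgeR adjusted p = 0.93). The p53 target list had 5 of 21 members higher, Trp53inp1 among them (log2 change 2.56, edgeR adjusted p = 0.0011), and 8 lower, with Ccng1 (log2 change −0.58, edgeR adjusted p = 0.0037) and Zmat3 (log2 change −0.50, edgeR adjusted p = 0.0059) as examples. These were shares of 23.8% higher, against 23.8% of all genes, and 38.1% lower, against 19.5%. The lower count was 3 without parental replicate 2 and 3, 4 and 3 without EV replicates 1, 2 and 3.

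Lysosomal genes were higher, with 20 of 28 called higher and 3 lower (median log2 change 0.58). Ctsd, which encodes the aspartic protease cathepsin D, had 421, 467 and 427 CPM in untreated parental cells, against 181, 188 and 179.9 CPM in EV cells (log2 change 1.27 ± 0.07 SE, edgeR adjusted p = 0.00022). Ctsa, the protective protein cathepsin A gene, had a log2 change of 0.89 (edgeR adjusted p = 0.00085). Hexa, the gene of the hexosaminidase alpha subunit, was lower (log2 change −1.05, edgeR adjusted p = 0.0043). The endoplasmic reticulum list had 9 of 23 members higher and 2 lower (39.1% and 8.70%, against 23.8% and 19.5% of all genes). Its higher count was 5 without parental replicate 2 or EV replicate 1 or 2. Xbp1, a transcription factor of the unfolded protein response, had 149, 183 and 132 CPM in untreated parental cells, against 60.2, 72.8 and 75.5 CPM in EV cells (log2 change 1.17 ± 0.14 SE, edgeR adjusted p = 0.0011). Its chaperone target Dnajb9 had a log2 change of 1.65 (edgeR adjusted p = 0.0010).

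Antioxidant genes of the NRF2 list were called about as often as all genes, with 9 of 31 higher and 8 lower (29.0% and 25.8%, against 23.8% and 19.5% of all genes; median log2 change 0.07). Aldh3a1, an aldehyde dehydrogenase gene, had 91.5, 70.5 and 44.9 CPM in untreated parental cells, against 4.25, 6.51 and 2.16 CPM in EV cells (log2 change 4.001 ± 0.43 SE, edgeR adjusted p = 0.00086). Osgin1 and the glutathione transferase gene Gstm2 were higher too (log2 changes 1.79 and 1.69, edgeR adjusted p = 0.00055 and 0.0017). Both subunits of the enzyme that starts glutathione synthesis were lower: Gclm had 51.9, 40.2 and 45.1 CPM in untreated parental cells, against 117, 109 and 109 CPM in EV cells (log2 change −1.28 ± 0.11 SE, edgeR adjusted p = 0.00049). Gclc had a log2 change of −0.81 (edgeR adjusted p = 0.0017). Slc30a1, a zinc exporter gene, showed the largest negative change of the genes that met the naming rule, with 3.61, 0.748 and 0.882 CPM in untreated parental cells, against 19.5, 22.7 and 16.8 CPM in EV cells (log2 change −3.48 ± 0.58 SE, edgeR adjusted p = 0.0037). Sepw1, a selenoprotein gene, had 17.2, 8.75 and 9.27 CPM in untreated parental cells, against 48.3, 42.9 and 38.9 CPM in EV cells (log2 change −1.87 ± 0.26 SE, edgeR adjusted p = 0.0021). Lists of zinc and metallothionein genes and of selenoprotein genes were chosen after values were seen, and their median log2 changes were −0.08 over 14 genes and −0.02 over 15.

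**Figure D3:**
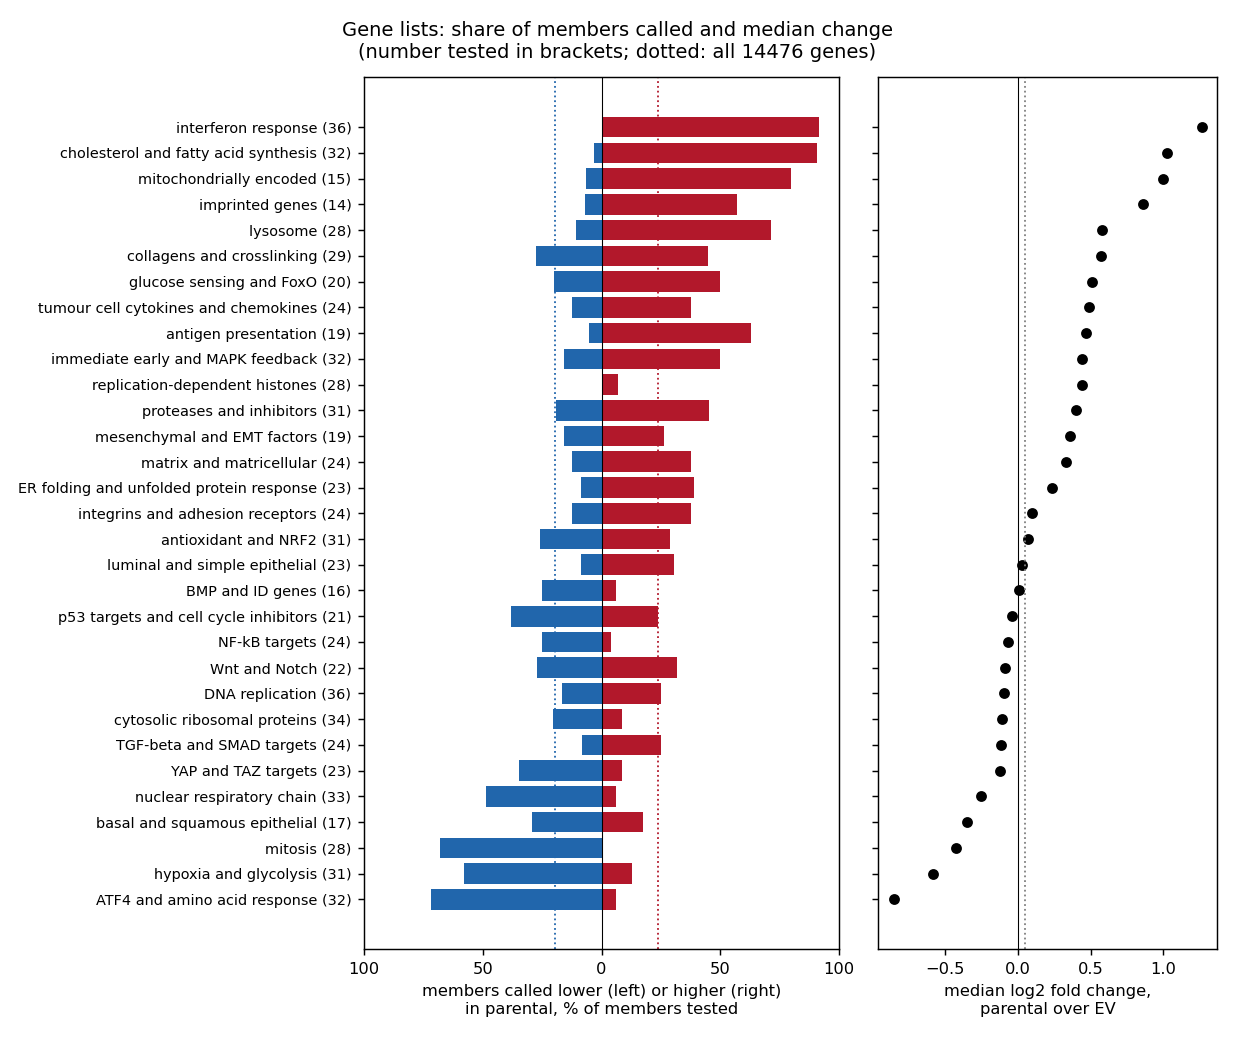
For 31 gene lists with at least 14 members tested (number in brackets), bars give the percentage of tested members called lower (blue, left) or higher (red, right) in untreated parental cells and points give the median log2 change over EV cells. Dotted lines mark the same values over all genes, 19.5% lower, 23.8% higher and a median of 0.050. Interferon response and cholesterol synthesis stand at the top and the ATF4 response at the bottom. The median of the imprinted genes includes members with no count in EV libraries.

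Epithelial identity genes showed no common shift. Of 23 luminal and simple epithelial genes, 7 were higher and 2 lower (30.4% and 8.70%, against 23.8% and 19.5% of all genes). Their median log2 change was 0.03. Krt18, a simple epithelial keratin gene, had 2132, 1937 and 1444 CPM in untreated parental cells, against 921, 1019 and 993 CPM in EV cells (log2 change 0.92 ± 0.13 SE, edgeR adjusted p = 0.0023). Its partner Krt8 had 1859, 1382 and 1032 CPM in untreated parental cells, against 961, 1034 and 1069 CPM in EV cells and was not called (log2 change 0.49, edgeR adjusted p = 0.069). Without parental replicate 3, Krt8 was called too (log2 change 0.67, edgeR adjusted p = 0.0039). Epcam, an epithelial adhesion gene, had 210.4, 248 and 245 CPM in untreated parental cells, against 112, 135 and 126 CPM in EV cells (log2 change 0.93 ± 0.10 SE, edgeR adjusted p = 0.00084). Cdh1, the E-cadherin gene, was slightly lower at 406 ± 41.9 CPM in parental cells and 515 ± 22.4 CPM in EV cells (log2 change −0.33, edgeR adjusted p = 0.017). It was not called without parental replicate 2 or with any of the EV replicates left out. Of 17 basal genes tested, 3 were higher and 5 lower (17.6% and 29.4%). Krt14, a basal keratin gene, had 13.7, 4.85 and 7.66 CPM in untreated parental cells, against 59.2, 68.9 and 91.9 CPM in EV cells (log2 change −3.06 ± 0.38 SE, edgeR adjusted p = 0.0013). The laminin gene Lama3 (log2 change −1.76, edgeR adjusted p = 0.00067) and the desmosomal gene Dsp (log2 change −0.95, edgeR adjusted p = 0.00052) were lower as well, while the integrin gene Itgb4 was higher (log2 change 0.84, edgeR adjusted p = 0.0013). In bulk RNA, fewer cells that express such a gene and less RNA per cell cannot be told apart.

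Mesenchymal genes were called at shares near those of all genes. Vim, the vimentin gene, had 2746, 2051 and 2085 CPM in untreated parental cells, against 2235, 2317 and 2067 CPM in EV cells and was not called (log2 change 0.07, edgeR adjusted p = 0.65). Fn1, the fibronectin gene, averaged 2648 ± 278 CPM in parental cells and 1909.8 ± 227 CPM in EV cells (log2 change 0.48, edgeR adjusted p = 0.012). It was not called without EV replicate 1 or 2. Snai1 was 1.48-fold higher (log2 change 0.56, edgeR adjusted p = 0.025), a call lost without parental replicate 2 or any of the EV replicates, and Zeb1 was not called (log2 change 0.64, edgeR adjusted p = 0.20). Of 19 tested members of the list, 5 were higher and 3 lower (26.3% and 15.8%, against 23.8% and 19.5% of all genes), and the higher count was 2 without parental replicate 2 and 1, 2 and 2 without EV replicates 1, 2 and 3. Among the hormone and growth factor receptors used to type breast cancer, Pgr had no count in the 6 libraries. Esr1, the oestrogen receptor gene, averaged 15.3 ± 1.55 CPM in parental cells and 11.1 ± 0.504 CPM in EV cells (log2 change 0.47, edgeR adjusted p = 0.015, not called with any of the EV replicates left out), and Erbb2 stood at 51.7 ± 9.51 CPM in parental cells and 60.4 ± 4.21 CPM in EV cells (log2 change −0.21, edgeR adjusted p = 0.23; without parental replicate 1 the log2 change was −0.40 with an adjusted p of 0.0069).

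Among matrix genes, Spp1 had 2894, 4275 and 1947 CPM in untreated parental cells, against 243, 278 and 205 CPM in EV cells (log2 change 3.66 ± 0.29 SE, edgeR adjusted p = 0.00042). The groups were separated by a wide gap. The largest log2 change on the list, 5.61, was that of Mgp, described above. Of 24 matrix genes, 9 were higher and 3 lower (37.5% and 12.5%, against 23.8% and 19.5% of all genes). Of 29 collagen and crosslinking genes, 13 were higher and 8 lower (44.8% and 27.6%). The lower counts were 7 for matrix genes without parental replicate 1 and 5 for collagen genes with any of the EV replicates left out. Tgm2, the tissue transglutaminase gene (log2 change 1.45, edgeR adjusted p = 0.00041), and the basement membrane collagen gene Col4a5 (log2 change 1.13, edgeR adjusted p = 0.00082) were higher, and the lysyl hydroxylase genes Plod1 (log2 change −0.86, edgeR adjusted p = 0.0014) and Plod2 (log2 change −0.61, edgeR adjusted p = 0.0013) were lower. Of 24 integrin and adhesion receptor genes, 9 were higher and 3 lower (37.5% and 12.5%). The integrin gene Itga8 had 9.65, 11.03 and 24.6 CPM in untreated parental cells, against 1.15, 1.38 and 1.26 CPM in EV cells (log2 change 3.59 ± 0.40 SE, edgeR adjusted p = 0.00096). The collagen receptor subunit gene Itga1 had 9.76, 12.5 and 10.5 CPM in untreated parental cells, against 1.67, 2.46 and 2.14 CPM in EV cells (log2 change 2.39 ± 0.19 SE, edgeR adjusted p = 0.00042).

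Wisp1, the gene studied in the other arm of the series, had 39.9, 18.1 and 9.14 CPM in untreated parental cells, against 36.5, 46.96 and 71.4 CPM in EV cells. The groups overlapped and the gene was not called (log2 change −1.196 ± 0.50 SE, edgeR adjusted p = 0.090). It was called in the fit of all 18 libraries (log2 change −1.21, edgeR adjusted p = 0.015) and without parental replicate 1 (log2 change −1.94, edgeR adjusted p = 0.0032). The related matricellular genes Ctgf and Cyr61 also overlapped, at 117 ± 56.9 and 149 ± 45.7 CPM in parental cells and 196 ± 51.3 and 219 ± 73.6 CPM in EV cells, and were not called (edgeR adjusted p = 0.12 and 0.16). Ctgf was called without parental replicate 1 (log2 change −1.21, edgeR adjusted p = 0.0036) and by DESeq2 (log2 change −0.76, adjusted p = 0.046). Of 24 TGF-beta and SMAD target genes, 6 were higher and 2 lower (25% and 8.33%, against 23.8% and 19.5% of all genes). Their median log2 change was −0.12. The lower count was 9 without parental replicate 1, and the higher count was 3 without parental replicate 2 or EV replicate 1 or 2. Ltbp3, which encodes a protein that stores latent TGF-beta in the matrix, had 741, 832 and 719 CPM in untreated parental cells, against 258, 278 and 290.3 CPM in EV cells (log2 change 1.49 ± 0.08 SE, edgeR adjusted p = 0.00022). The signal transducer gene Smad3 and the receptor gene Tgfbr1 were higher (log2 changes 0.93 and 0.56, edgeR adjusted p = 0.00077 and 0.0035). The inhibitor gene Smad7 was not called (log2 change −0.23, edgeR adjusted p = 0.40; edgeR adjusted p = 0.047 without parental replicate 1). Of the ligands, Tgfb1 was not called (log2 change 0.48, edgeR adjusted p = 0.20) except without parental replicate 3 (log2 change 0.77, edgeR adjusted p = 0.00099), Tgfb2 was lower (log2 change −0.75, edgeR adjusted p = 0.0053) and Tgfb3 higher (log2 change 0.49, edgeR adjusted p = 0.023, not called with any of the EV replicates left out).

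Cytokine genes were higher in 9 of 24 cases and lower in 3 (37.5% and 12.5%, against 23.8% and 19.5% of all genes). The parental libraries differed widely among themselves. Csf3, the granulocyte colony-stimulating factor gene, had 34.9, 204 and 67.04 CPM in untreated parental cells, against 18.5, 18.8 and 19.6 CPM in EV cells (log2 change 2.44 ± 0.59 SE, edgeR adjusted p = 0.014). Parental replicate 2 was the highest, and the lowest parental library was still above the EV range. Csf2, the gene of the granulocyte-macrophage factor, had 1.69, 3.12 and 1.99 CPM in untreated parental cells, against 0.143, 0.223 and 0.172 CPM in EV cells (log2 change 3.63 ± 0.36 SE, edgeR adjusted p = 0.00068). Cx3cl1, which encodes the chemokine fractalkine, had 183, 189 and 82.7 CPM in untreated parental cells, against 34.3, 36.8 and 35.6 CPM in EV cells (log2 change 2.101 ± 0.29 SE, edgeR adjusted p = 0.0019). Il1a, the interleukin-1 alpha gene, had 7.61, 60.6 and 7.25 CPM in untreated parental cells, against 4.11, 4.97 and 3.06 CPM in EV cells (log2 change 2.64 ± 0.85 SE, edgeR adjusted p = 0.040). The neutrophil chemokine gene Cxcl3 was lower, at 1.36 ± 0.436 CPM in parental cells and 4.11 ± 0.638 CPM in EV cells (log2 change −1.58, edgeR adjusted p = 0.0043). Without EV replicates 1, 2 and 3, members called higher numbered 3, 4 and 3, and neither Csf3 nor Il1a was called in any of these fits.

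Drug efflux genes were examined because the EV line had been selected with puromycin. Abcb1a, one of the genes of P-glycoprotein, which can export puromycin, had 7.16, 12.8 and 11.97 CPM in untreated parental cells, against 3.34, 3.52 and 3.27 CPM in EV cells (log2 change 1.67 ± 0.24 SE, edgeR adjusted p = 0.0021). Its paralog Abcb1b was 1.27-fold higher in parental cells (log2 change 0.35, edgeR adjusted p = 0.0059). Any reads shared by these paralogs would make both values less certain, and how such reads were counted is not given. Abcc3 had 75.8, 95.8 and 51.4 CPM in untreated parental cells, against 5.49, 6.69 and 4.98 CPM in EV cells (log2 change 3.71 ± 0.25 SE, edgeR adjusted p = 0.00032), and Abcc1 was lower (log2 change −0.74, edgeR adjusted p = 0.015, not called without parental replicate 2 or EV replicate 3). Of 8 members tested, 4 were higher and 2 lower (50% and 25%, against 23.8% and 19.5% of all genes).

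The remaining lists are given by their counts, where 23.8% of all genes were higher and 19.5% lower. Not far from these shares were Wnt and Notch genes (31.8% and 27.3%) and aryl hydrocarbon receptor targets (14.3% and 14.3%). The share of ribosomal protein genes lower (20.6%) was near that of all genes. Of 23 YAP and TAZ target genes 2 were higher and 8 lower, of 24 NF-kB target genes 1 and 6, and of 16 BMP and ID genes 1 and 4. Of 22 Wnt and Notch genes 7 were higher and 6 lower, and of 20 glucose sensing and FoxO genes 10 and 4 (median log2 change 0.51). Of 14 imprinted genes tested 8 were higher, 7 of them at least 2-fold, and 1 was lower (median log2 change 0.86). The other 16 members were not tested. Rian, Peg3 and Nnat, 3 of the tested members, were at 0 in every EV library. These 3 passed the filter through the parental libraries alone, so their direction was fixed in advance. The higher count of imprinted genes was 4 under the stricter filter, 5 after thinning and as many as 12 under another alternative. Of 34 ribosomal protein genes 3 were higher and 7 lower, of 28 replication-dependent histone genes, whose transcripts mostly lack poly(A) tails, 2 and 0, of 9 nuclear-retained and small structured RNAs 1 and 2, of 7 aryl hydrocarbon receptor targets 1 and 1, of 6 breast cancer receptor genes 3 and 0, and of 2 germline genes 2 and 0. The germline count was 0 without parental replicate 2 or 3 or any of the EV replicates, and 28 germline genes were not tested. Ribosomal protein genes lower numbered 11 without parental replicate 1, 2 without parental replicate 2, and 1, 3 and 2 without EV replicates 1, 2 and 3. They were as many as 13 under another alternative. Without EV replicates 1, 2 and 3, NF-kB targets lower numbered 3, 2 and 3, and Wnt and Notch genes lower numbered 3, 3 and 2. NF-kB targets higher numbered 5 without parental replicate 1, and Wnt and Notch genes lower 2 without parental replicate 2. Breast cancer receptor genes higher numbered 1 with any of the EV replicates left out. Hey1, a Notch target gene, had 0.108, 0.131 and 0.191 CPM in untreated parental cells, against 0.908, 0.828 and 1.11 CPM in EV cells (log2 change −2.69 ± 0.34 SE, edgeR adjusted p = 0.0013). Gadd45b, a stress-induced gene, had 16.2, 19.7 and 20.8 CPM in untreated parental cells, against 58.8, 61.7 and 67.6 CPM in EV cells (log2 change −1.71 ± 0.12 SE, edgeR adjusted p = 0.00039). Wwtr1, which encodes the YAP partner TAZ, had 364, 440.4 and 348 CPM in untreated parental cells, against 168, 178 and 154 CPM in EV cells (log2 change 1.22 ± 0.10 SE, edgeR adjusted p = 0.00053). The groups did not overlap for these genes. Plk2, a polo-like kinase gene, and Sdpr, which encodes the caveolar protein cavin-2, were among the largest negative changes. Plk2 had 44.5, 35.5 and 41.9 CPM in untreated parental cells, against 201, 176 and 237 CPM in EV cells (log2 change −2.32 ± 0.14 SE, edgeR adjusted p = 0.00030). Sdpr had 28.1, 21.9 and 41.4 CPM in untreated parental cells, against 133, 134 and 124 CPM in EV cells (log2 change −2.08 ± 0.22 SE, edgeR adjusted p = 0.00084).

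Whether the differences recurred in other libraries was examined in comparisons that share no library with the main one, although TGFb1 or the substrate or insert enters each of them. They are not independent of it: the TGFb1 and untreated parental libraries share culture codes in their titles, and same-coded pairs deviated together from their group means (r = 0.84, 0.69 and 0.82 across genes). TGFb1-treated parental cells against EV cells on collagen gave 6752 called genes of 14491 (46.6%). Of 6143 genes called in the main comparison and tested in both, 3643 were called in the same direction, or 59.3% of the main calls and 55.7% of the calls of the second comparison, and 313 in the opposite direction (5.10%). TGFb1-treated parental cells against the Wisp1 line on plastic gave 7625 called genes of 14219 (53.6%), with 4452 of 6087 in the same direction (73.1% of the main calls and 59.6% of the others) and 159 opposite (2.61%). Both comparisons share the TGFb1 libraries.

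By library, the 6 parental-line libraries lay all above the 12 stable-line libraries for 1580 genes (10.9%) and all below them for 1933 (13.4%). For the interferon list this held above for 28 of 36 members, and the list median, relative to the EV mean on plastic, was 1.26, 0.87 and 0.84 in untreated parental libraries and 3.02, 1.98 and 1.52 in TGFb1 libraries. The sterol list was above for 24 of 32 members, with medians of 1.21, 1.07 and 0.65 in untreated parental libraries and −0.63, −0.86 and −0.70 in EV libraries on collagen. Members of the mitosis list were below for 17 of 28, those of the hypoxia and glycolysis list for 15 of 31 and those of the ATF4 list for 12 of 32. Of 15 mitochondrially encoded genes 8 lay above. Some lists also differed on collagen. The mitochondrial list had medians of 1.19, 0.84 and 0.90 in untreated parental libraries and 0.46, 0.65 and 0.74 in EV libraries on collagen. The ATF4 list had medians of −0.84, −0.92 and −0.98 in untreated parental libraries and −0.62, −0.51 and −0.43 in EV libraries on collagen.

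**Figure D4:**
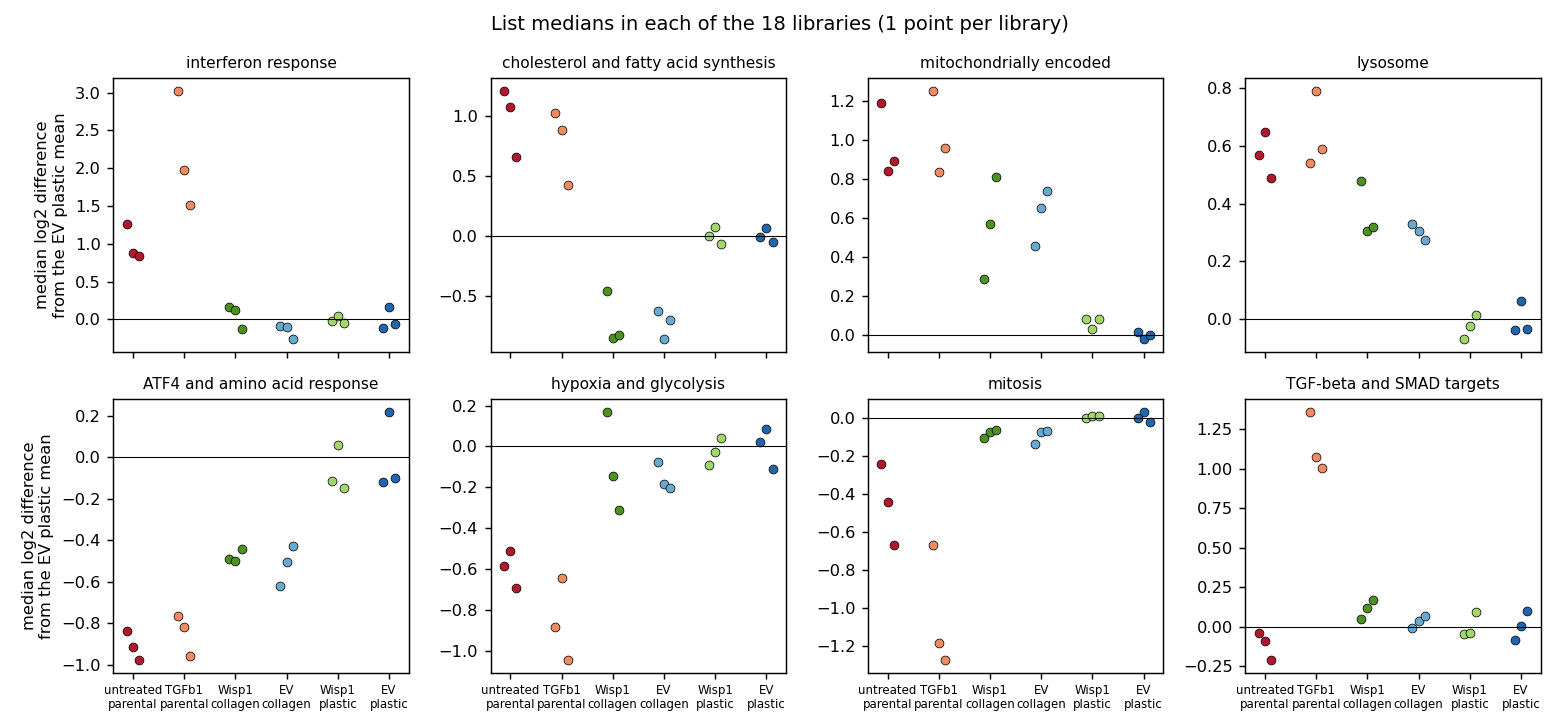
Each panel shows, for 1 gene list, the median over members of the log2 CPM difference from the mean of the EV libraries on plastic, with 1 point for each of the 18 libraries and groups on the x axis. Interferon and sterol lists are high in all 6 parental-line libraries, ATF4, glycolysis and mitosis lists are low in them, mitochondrial and lysosomal lists are also higher and the ATF4 and sterol lists lower on collagen than on plastic, and the TGF-beta target list is high only in the TGFb1 libraries.

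Some of the most changed genes recurred in neither comparison, or in 1 of them. Krt14 had log2 changes of 1.14 and 0.56 in the comparisons with EV on collagen and with the Wisp1 line, against −3.06 in the main one. Mmp3 had −0.69 and 1.45 and was called in neither. Mgp had −0.43 and 1.503, and it was called higher against the Wisp1 line (edgeR adjusted p = 0.040) but not against EV on collagen (edgeR adjusted p = 0.53). By contrast Slc30a1 had −3.695 and −3.88, Ace 4.38 and 4.99, Oasl2 4.297 and 3.99, and Ldha −1.76 and −1.94. The effect of TGFb1 and that of the line cannot be told apart in these values.

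Parental libraries varied more than EV libraries. The labels do not say whether the EV replicates were grown apart, so their smaller spread may be technical. The common biological coefficient of variation was 0.245 in untreated parental and 0.0627 in EV libraries, and the median SD of log2 CPM was 0.184 in parental and 0.0786 in EV libraries. The SD was larger in parental than in EV libraries for 11767 of 14476 genes (81.3%). Libraries correlated at 0.979 to 0.991 within the parental group, at 0.998 within the EV group and at 0.965 to 0.979 between the groups, across genes. The parental genes with the largest SD were Lcn2, Mmp13, Il1a, Serpine2 and Ly6e. Serpine2, a protease inhibitor gene, had 5.04, 7.84 and 48.2 CPM in untreated parental cells, against 4.54, 4.97 and 3.62 CPM in EV cells and was not called (log2 change 2.24, edgeR adjusted p = 0.060) except without parental replicate 1 and by DESeq2. Ly6e, an interferon-induced surface protein gene, had 74.3, 43.6 and 11.3 CPM in untreated parental cells, against 14.9, 18.05 and 17.1 CPM in EV cells (log2 change 1.38, edgeR adjusted p = 0.082, called without parental replicate 3). Lcn2, Mmp13, Il1a and Csf3 were each highest in parental replicate 2.

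Some low-level transcripts of cell types outside the label also separated the 2 sets. The summed levels of macrophage, leukocyte, endothelial and fibroblast markers overlapped between them. The macrophage genes Lyz2 and Emr1 had 0, 0 and 0.0715 CPM and 0, 0 and 0.0119 CPM in untreated parental libraries, against 4.78, 3.05 and 3.89 CPM and 0.358, 0.302 and 0.364 CPM in EV libraries. In a list of 25 macrophage genes chosen after values were seen, 9 to 13 members were at 0 in parental libraries and 0 in EV libraries, and the summed level, in which Cd14 and Cd68 weigh most in parental cells, was 11.6 to 26.4 CPM in parental and 22.6 to 26.8 CPM in EV libraries. The leukocyte markers summed to 4.87 to 12.7 CPM in parental and 10.1 to 12.4 CPM in EV libraries. In the opposite direction, the embryonic globin gene Hbb-y had 0.935, 0.813 and 0.882 CPM in parental libraries and no count in EV libraries, which with 3 counts per library as the limit made it at least 15.6-fold higher. The imprinted gene Nnat had 0.611, 0.761 and 0.501 CPM in parental libraries and no count in EV libraries, at least 11.1-fold higher. A list of 20 erythroid and embryonic genes, also chosen after values were seen, summed to 3.75 to 4.61 CPM in parental and 0.0191 to 0.0478 CPM in EV libraries, with 0 to 3 and 18 to 19 members at 0. These limits cover counting error only. Fibroblast markers summed to 49.1 to 68.0 CPM in parental and 30.4 to 51.7 CPM in EV libraries, and most of the parental sum was Pdgfra, a growth factor receptor gene (log2 change 1.44, edgeR adjusted p = 0.0030), while the collagen genes Col1a2 and Col3a1 were below 1 CPM on average in both groups and lower in parental cells. Endothelial markers summed to 4.00 to 6.27 CPM in parental and 5.30 to 6.02 CPM in EV libraries. Adipocyte and muscle markers summed to 2.96 to 11.2 CPM in parental and 0.355 to 0.669 CPM in EV libraries. Milk and alveolar markers summed to 72.9 to 124 CPM in parental and 7.48 to 16.9 CPM in EV libraries. Most of this sum was Xdh in each of these libraries. Of the 10 members, 4 to 6 were at 0 in parental libraries and 7 in EV libraries. Of 4 milk and alveolar markers tested, 3 were higher and 1 lower (75% and 25%, against 23.8% and 19.5% of all genes). Of the 3 higher, Ltf had no count in any EV library. It passed the filter through the parental libraries alone, so its direction was fixed in advance. Btn1a1, a milk fat globule gene, was the lower one, with 1.04, 0.315 and 0.465 CPM in untreated parental cells, against 2.77, 3.43 and 2.57 CPM in EV cells (log2 change −2.25 ± 0.43 SE, edgeR adjusted p = 0.0061). The milk protein gene Csn3 had 17.6, 15.4 and 7.83 CPM in untreated parental cells, against 0.621, 0.828 and 0.459 CPM in EV cells (log2 change 4.41 ± 0.38 SE, edgeR adjusted p = 0.00053). Xdh, which milk fat secretion needs, had 95.5, 108 and 64.4 CPM in untreated parental cells, against 8.84, 12.7 and 4.46 CPM in EV cells (log2 change 3.38 ± 0.38 SE, edgeR adjusted p = 0.00098). The part of these transcripts in the other results was not tested.

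**Figure D5:**
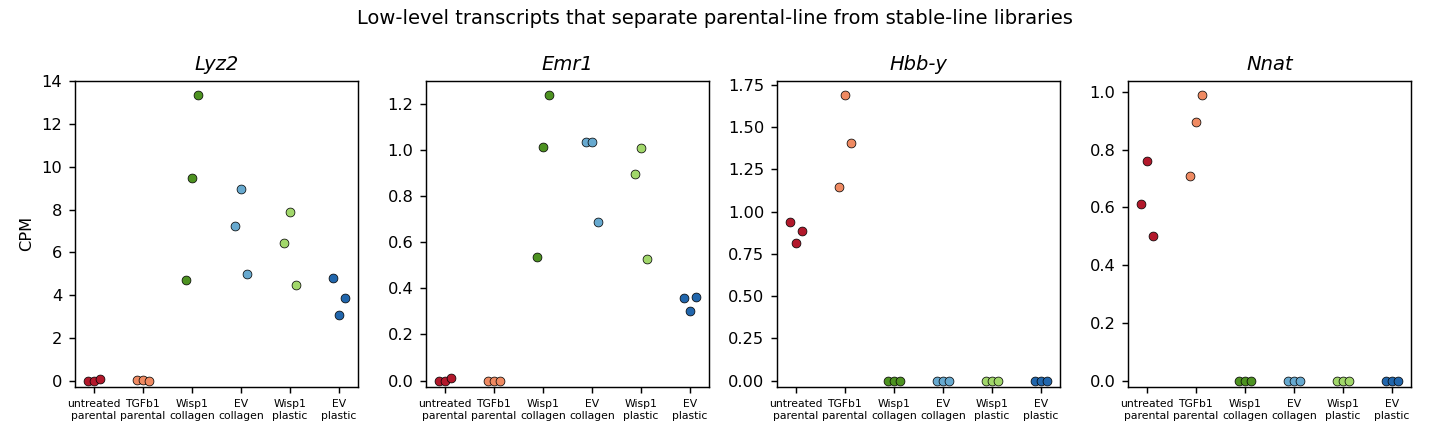
CPM of the macrophage genes Lyz2 and Emr1, the embryonic globin gene Hbb-y and the imprinted gene Nnat in each of the 18 libraries, 1 point per library, with groups on the x axis. Lyz2 and Emr1 are present in the 12 stable-line libraries and at or near 0 in the 6 parental-line libraries, and Hbb-y and Nnat show the reverse, with no count in any stable-line library.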

How the data were processed

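Poly(A) RNA of 4T1 cultures was sequenced with a stranded kit, per the labels' protocols, and the authors deposited raw counts of reads per gene symbol, 1 table per library. Per the submitters' processing notes the build was mm9, and HTSeq, STAR, BWA, CASAVA, limma and R 3.2.4 are listed without roles. How the counting treated strand, and its gene annotation, is not given in the sources used here. Rows of reads that hit no gene or several were dropped (no-feature reads were 10.3 to 12.8% of a parental library and 10.4 to 10.9% of an EV library).

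From these counts, genes were filtered with filterByExpr, scaled by TMM and tested with edgeR 4.0.16 in R 4.3.3 (robust quasi-likelihood test, 3 against 3 libraries, Benjamini-Hochberg adjustment over 14476 genes, threshold 0.05). CPM values use TMM factors over all 18 libraries. Alternatives used limma 3.58.1, DESeq2 1.42.0, other scaling and filters, thinning, and each library left out. No 2 replicates agreed within sampling noise. On counts simulated with the library sizes and spreads of this comparison, over 14476 genes, edgeR recovered 0, 28, 80 and 98% of genes changed 1.2, 1.5, 2 and 4-fold (50 each), and 6 of 109 calls were false. Few genes were changed there, as many up as down, while 43.4% were called in the real counts. The adjusted p cutoff therefore differs, and these shares do not give the recovery or false calls of the real comparison.

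Named genes were the 10 largest changes and 5 smallest adjusted p per direction (mean of at least 5 CPM, no overlap), the leading members of each list, a panel, the 10 highest per kb and the 5 most variable at 20 CPM or more. The comparison and the 41 lists were chosen with earlier results of these data known, and 4 lists were added after values were seen. Some genes that met the rule are not reported here. Promoter windows and coding lengths are from GRCm38 (RefSeq and GENCODE), so none of them is an mm9 coordinate.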

Additional observations from a re-analysis of the deposited data

How the results depend on the processing

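Over 14 alternatives, none of 174 genes examined one by one reversed a call, and the share of higher calls stayed between 51.2 and 57.3%, against 55.0% in the reported fit. The 6276 called genes became 6309 with relative log expression size factors, 7158 with DESeq2, 6288 with limma-voom, 6132 with no filter, 5611 with a stricter filter, 8098 in a fit of all 18 libraries and 6008 after thinning. Leaving out 1 library gave 3711 to 8557: 8557, 4022 and 6879 without parental replicates 1, 2 and 3, and 3757, 3931 and 3711 without EV replicates 1, 2 and 3. The comparison of TGFb1-treated cells with EV on collagen gave 6752 calls, and 4236 to 8748 with 1 library left out (4334 and 4236 without EV on collagen replicates 2 and 3); that with the Wisp1 line gave 7625, and 5488 to 9231. Same-numbered parental and EV libraries did not deviate together (r = −0.15, 0.07 and −0.05), so the numbers do not pair them; with the replicate block 5308 genes were called, 5178 of them among the 6276. Of the 152 called among these 174 genes, 132 kept their call in every alternative. Thinning every library to 41761010 counts left 5810 of the 6276 calls.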
